A study of Mus musculus with 22 samples.

Results

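The dimethylation of lysine 4 on histone H3 (H3K4me2) was examined in BV2 cells, an immortalised mouse microglial line, that carried 1 of 3 lentiviral constructs. All peaks of the 3 deposited H3K4me2 peak lists were taken, which gave 121462 of the 505760 peaks in the 12 peak lists of the series: 39503 in cells with the empty vector (pCDH), 39445 in cells with an N-terminal fragment of wild-type human huntingtin of 15 glutamines (Nwt), and 42514 in cells with the mutant fragment of 128 glutamines (Nmu). Each peak was placed by the distance from its centre to the nearest transcript start in the deposited expression table, as 1 kb or less, 1 to 20 kb, or over 20 kb. No peak was left out.

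All 3 constructs share the vector pCDH-CMV-MCS-EF1-Puro, in which a CMV promoter stands before the cloning site, and the endogenous mouse Htt gene, and the chromatin libraries are labelled untreated and 24 h. The labels do not say whether a transduced line was a pool or a clone, nor whether libraries came from separate transductions. Each construct has 1 H3K4me2 library, so differences between H3K4me2 libraries have no replicate check and no test, and the intervals given cover counting error only. Each construct also has 2 RNA libraries, of 24 h and of a second time that the expression table calls 6 h and the labels call 48 h; no order of the 2 times is assumed, and RNA values are given for 24 h first.

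H3K4me2 is found on nucleosomes at both active promoters and distal regulatory elements, so a map of its peaks takes in both. A peak alone does not show that the DNA under it is in use. At an active promoter the start itself is often depleted of nucleosomes, so the mark flanks it on both sides. In macrophages and microglia the ETS factor PU.1 and the C/EBP factors are known to bind many of the distal elements that carry the mark.

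Depth was close between the H3K4me2 libraries, at 5.39 M tags in pCDH, 5.26 M tags in Nwt and 5.36 M tags in Nmu. The share of tags inside peaks was 57.6%, 48.5% and 54.8%, and the estimated fragment length 98, 94 and 104 bp, in the same order. The part of these differences in the results below was not tested. The RNA values imply depths of 10.77 to 14.03 M reads over the 6 libraries. Of 11 microglia and macrophage markers, 10 had a peak whose edge lay within 1 kb of a start in each library (Csf1r, Itgam, Ptprc, Tyrobp and Laptm5 among them), and Aif1 had none so close. None of 8 lymphocyte, 5 hepatocyte and 5 skeletal muscle markers had such a peak in any library, against 2 of 8 neuronal markers (Syn1 and Slc17a7). Granulocyte markers had such a peak at 3 of 7 in each control and 4 of 7 in Nmu. Fibroblast markers had it at 2 of 6 and endothelial markers at 1 of 6 in each library. Of 6 astrocyte markers, 1 had it in each control and 0 in Nmu. Of 7 oligodendrocyte markers, 1 had it in pCDH and in Nmu and 0 in Nwt. The summed RPKM of the 11 microglia and macrophage markers ran from 545 to 1041 over the 6 RNA libraries. The RNA of the transferred fragments is human and is not in the mouse expression table, and mouse Htt lay between 2.86 and 3.97 RPKM in the 6 libraries, so the table does not check the construct labels.

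The start regions of 5 genes named in the results below are printed here as examples. Ebi3, Lcn2, Pilrb1 and Pilrb2 had an H3K4me2 peak within 1 kb of their start in Nmu cells alone, and Mmp14 in both controls but not in Nmu cells. Each sequence is the RefSeq promoter on the GRCm38.p6 build, from 250 bases before to 50 bases after the start, written 5′ to 3′ on the gene's strand. Capitals mark every match, on either strand, to 6 motifs: the ETS core GGAAGT, the C/EBP motif TTGCNNAA, the AP-1 motif TGANTCA, the TATA box TATAAA, the GC box GGGCGG and the NRF1 half-site GCATGCG. The windows lie at chr17:55952373-55952672 (plus strand, Ebi3), chr2:32387690-32387989 (minus strand, Lcn2), chr5:137858000-137858299 (minus strand, Pilrb1), chr5:137871709-137872008 (minus strand, Pilrb2) and chr14:54431348-54431647 (plus strand, Mmp14).
Ebi3: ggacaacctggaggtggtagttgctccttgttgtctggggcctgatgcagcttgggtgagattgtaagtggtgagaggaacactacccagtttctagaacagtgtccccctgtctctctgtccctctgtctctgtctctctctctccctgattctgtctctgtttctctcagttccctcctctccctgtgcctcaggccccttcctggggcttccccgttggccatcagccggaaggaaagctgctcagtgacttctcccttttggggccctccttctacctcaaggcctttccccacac
Lcn2: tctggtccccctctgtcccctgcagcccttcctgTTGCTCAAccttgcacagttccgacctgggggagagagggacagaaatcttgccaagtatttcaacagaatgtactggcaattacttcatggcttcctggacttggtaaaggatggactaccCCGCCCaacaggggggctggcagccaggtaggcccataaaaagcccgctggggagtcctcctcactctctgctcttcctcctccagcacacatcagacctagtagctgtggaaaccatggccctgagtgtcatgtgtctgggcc
Pilrb1: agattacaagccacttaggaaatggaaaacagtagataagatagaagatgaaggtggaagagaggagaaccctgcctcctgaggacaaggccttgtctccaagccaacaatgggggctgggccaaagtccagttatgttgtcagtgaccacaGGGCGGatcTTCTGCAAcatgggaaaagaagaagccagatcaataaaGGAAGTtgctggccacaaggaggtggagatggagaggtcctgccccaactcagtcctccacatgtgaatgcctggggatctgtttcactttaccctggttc
Pilrb2: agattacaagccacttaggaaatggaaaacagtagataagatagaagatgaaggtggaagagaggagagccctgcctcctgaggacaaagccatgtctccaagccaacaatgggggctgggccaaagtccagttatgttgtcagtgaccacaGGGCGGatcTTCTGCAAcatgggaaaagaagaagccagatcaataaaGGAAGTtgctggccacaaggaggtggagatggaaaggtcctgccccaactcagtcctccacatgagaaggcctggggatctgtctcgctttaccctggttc
Mmp14: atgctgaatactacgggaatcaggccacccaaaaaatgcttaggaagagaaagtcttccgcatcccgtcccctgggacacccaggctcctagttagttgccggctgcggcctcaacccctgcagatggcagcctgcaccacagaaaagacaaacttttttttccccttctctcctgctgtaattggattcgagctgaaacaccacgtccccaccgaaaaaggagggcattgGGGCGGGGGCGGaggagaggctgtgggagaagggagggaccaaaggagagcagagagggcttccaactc
The Ebi3 window held none of the 6 motifs. The Lcn2 window held a C/EBP match and a GC box, and the Mmp14 window a pair of adjoining GC boxes. The Pilrb1 and Pilrb2 windows were identical at 292 of 300 bases and held the same ETS, C/EBP and GC box matches. Over 27025 RefSeq promoters of this length, 24.1% held the ETS core, 10.8% the C/EBP motif, 7.93% the AP-1 motif, 14.2% the TATA box, 35.9% the GC box and 3.64% the NRF1 half-site. These matches describe the letters of the windows only. A comparison of promoter motifs between groups of genes was void, because the promoter table matched only 78.4% of the 22736 genes with a transcript of 200 bases or more (109 of the 155 genes marked in Nmu alone and 122 of the 169 marked in both controls).

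Nmu cells had more H3K4me2 peaks than either control, and by peak centre the excess lay more than 1 kb from a transcript start. The Nmu list was 7.62% longer than that of pCDH and 7.78% longer than that of Nwt, while the control lists differed by less than a percent (Nwt minus pCDH, -58 peaks). Within 1 kb of a start, Nmu had 8616 peaks against 8669 in pCDH and 8812 in Nwt. Between 1 and 20 kb it had 18461 against 16718 and 16808, and beyond 20 kb 15437 against 14116 and 13825. The Nmu excess was thus 1743 and 1653 peaks at the middle distance and 1321 and 1612 peaks at the far distance. The controls differed from each other (Nwt minus pCDH) by 143 peaks near starts, 90 peaks at the middle distance and -291 peaks at the far distance. How many start-near peaks each library had depended on the measure: by the nearest edge in place of the centre, Nmu had 13673 within 1 kb against 13172 in pCDH and 13401 in Nwt, and within 2 kb by centre 13282 against 12860 and 13219.

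As a share of its own list, the start-near class was smallest in Nmu. It held 20.3% of Nmu peaks (95% Clopper-Pearson interval 19.9 to 20.7), 21.9% of pCDH peaks (21.5 to 22.4) and 22.3% of Nwt peaks (21.9 to 22.8). The middle class held 43.4% in Nmu, 42.3% in pCDH and 42.6% in Nwt. The far class held 36.3% in Nmu (35.9 to 36.8), 35.7% in pCDH (35.3 to 36.2) and 35.0% in Nwt (34.6 to 35.5). The interval of the Nmu start-near share did not meet either control's interval, whereas the far share of Nmu met that of pCDH. The excess was spread over the genome: the ratio of Nmu to pCDH peak numbers ran from 1.01 on chromosome X to 1.12 on chromosomes 2 and 3, and no library had a peak on chromosome Y.

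Peaks were narrower in Nmu in every distance class. The median width over all peaks was 1318 bp in pCDH (95% order-statistic interval 1306 to 1330), 1233 bp in Nwt (1222 to 1244) and 1154 bp in Nmu (1142 to 1164). Near starts it was 1856 bp, 1524.5 bp and 1405.5 bp; at the middle distance 1358, 1298 and 1252 bp; beyond 20 kb 1105, 1043 and 957 bp. The order of the 3 libraries was the same in each class. The controls thus differed from each other as well, and except beyond 20 kb the step from pCDH to Nwt was larger than that from Nwt to Nmu. Peaks wider than 3 kb made up 12.5% of pCDH, 10.4% of Nwt and 9.50% of Nmu peaks. With more but narrower peaks, Nmu covered 65.0 Mb in total, between Nwt (62.8 Mb) and pCDH (67.3 Mb). Width also changed with position: in pCDH, peaks centred from 500 to 1000 bp downstream of a start had a median of 1480 bp, and those from 1 to 5 kb downstream 1708.5 bp, so the 1 kb limit itself divides a continuous range.

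**Figure D1:**
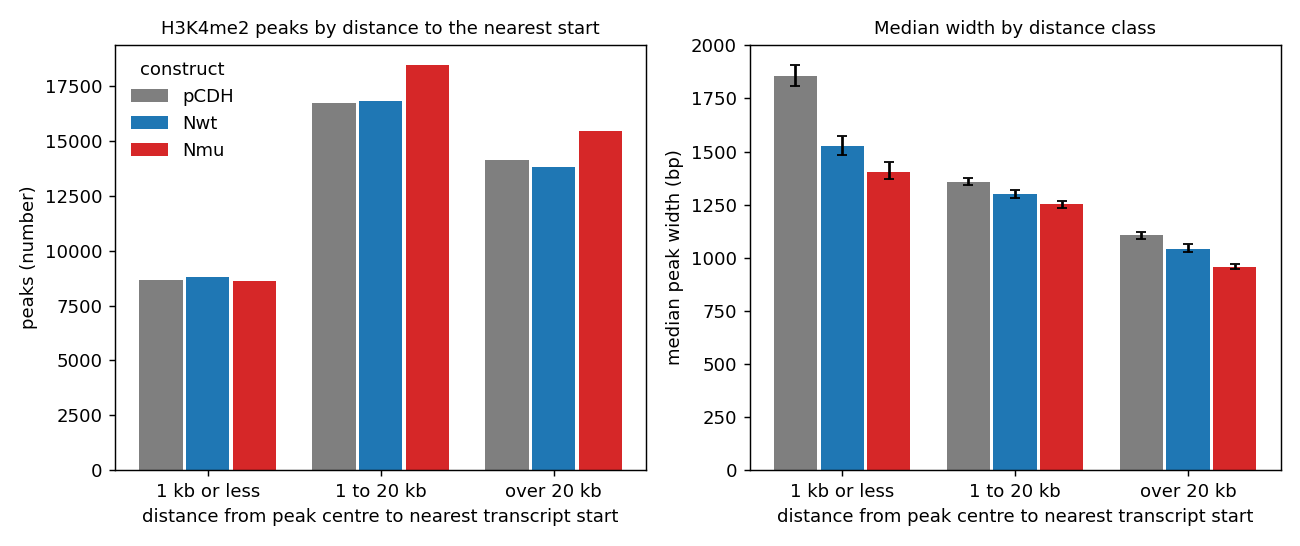
Number of H3K4me2 peaks (left) and median peak width in bp (right) in each distance class, for the 1 library of each construct; error bars are 95% order-statistic intervals, which cover counting error only. The Nmu bars stand above both controls at 1 to 20 kb and over 20 kb (18461 and 15437 peaks), and the Nmu medians are the lowest in all 3 classes.

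Near starts, a marked region was more often split into several peaks in Nwt and Nmu than in pCDH. When peaks of the 3 libraries that overlapped by 1 base or more were merged, 30592 regions held a peak of every library, and in 4.27% of them pCDH had more than 1 peak, against 7.06% for Nwt and 7.45% for Nmu. In the 7631 of these regions near starts the shares were 8.27%, 14.0% and 16.3%. Where each library had exactly 1 peak in a region (26617 regions), the median ratio of widths was 0.962 for Nmu to pCDH, 0.997 for Nmu to Nwt and 0.970 for Nwt to pCDH. In those undivided regions the Nmu and Nwt widths were thus nearly the same, and near starts the median ratio of Nmu to Nwt was 1.00.

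The profile of coverage around starts showed the same pattern. At 10884 starts of genes with an RPKM of 1 or more, the start base itself lay inside a peak in 53.1% of cases in pCDH, 47.9% in Nwt and 45.0% in Nmu. Coverage rose to 81.9% at 900 bp downstream in pCDH, 80.0% at 900 bp in Nwt and 80.6% at 1000 bp in Nmu. The upstream shoulder was lower, at 74.1%, 71.7% and 70.5%, and lay 600 bp before the start in all 3 libraries (an offset of -600). At 2 kb downstream Nmu had the highest coverage, 43.1% against 40.3% in pCDH and 37.7% in Nwt. The Nmu profile therefore had the deepest dip at the start and the longest downstream flank. At starts under an RPKM of 1 the start base was covered in 11.3%, 9.86% and 9.81% of cases.

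**Figure D2:**
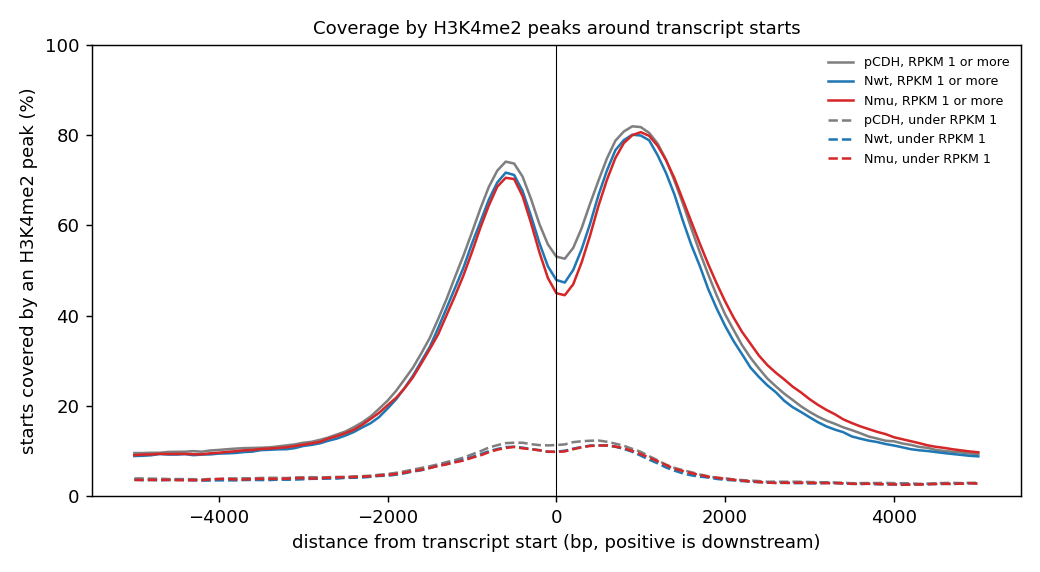
Share of transcript starts (%) covered by an H3K4me2 peak at each distance from the start (bp, positive is downstream), for starts of genes at an RPKM of 1 or more (solid lines) and under 1 (dashed lines) in each construct. All 3 solid lines dip at the start, from a downstream maximum of 80.0 to 81.9% to between 45.0% (Nmu) and 53.1% (pCDH).

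The merged regions numbered 47616, and most were common to the 3 constructs. A peak of every library lay in 64.2% of them. Regions with a peak of Nmu alone came to 5416 (11.4%, Clopper-Pearson interval 11.1 to 11.7), against 2784 with pCDH alone and 2243 with Nwt alone. Regions shared by both controls and missing from Nmu numbered 2474, against 2289 shared by pCDH and Nmu without Nwt and 1818 shared by Nwt and Nmu without pCDH. Of the Nmu-alone regions, 3.06% lay within 1 kb of a start, 43.6% at 1 to 20 kb and 53.3% beyond 20 kb, whereas 24.9% of the common regions lay within 1 kb. Regions of a single control had 6.03% (pCDH) and 4.55% (Nwt) near starts, so a distal position was shared by the library-specific regions of all 3 constructs.

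Library-specific peaks were small. Those of Nmu had a median of 628 bp, and 47.1% were at the smallest width the caller gives; those of each control had a median at that width. Above 2 kb, 99.0% of Nmu peaks, 99.0% of pCDH peaks and 99.5% of Nwt peaks lay in regions common to all 3. Of the peaks wider than 2 kb, 30 were specific to Nmu, 3 to pCDH and 1 to Nwt. Ebi3 and Lcn2, described below, lie under 2 of those 30 peaks, at 2174 and 3469 bp.

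**Figure D3:**
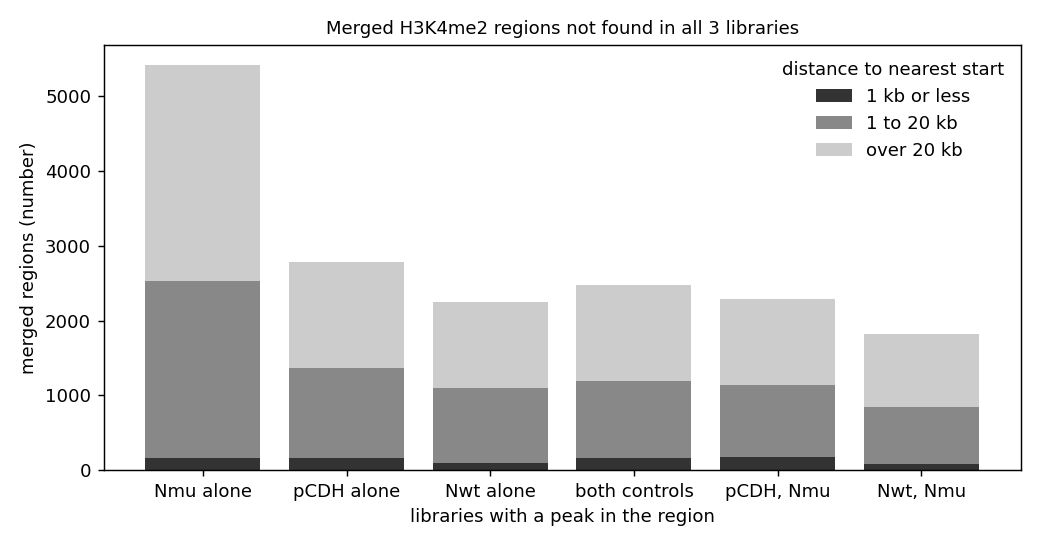
Number of merged H3K4me2 regions that were not found in all 3 libraries, by which libraries had a peak there and by distance to the nearest start (shades). Nmu alone has 5416 regions, of which 3.06% lie within 1 kb of a start; the other 5 patterns have 1818 to 2784.

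Some Nmu-alone regions lay close together. The group with most regions, 6 over chr8:97290906-97349175 (mm9), had Cx3cl1, Ccl17 and Ciapin1 as its nearest genes; Cx3cl1 encodes the ligand of the microglial receptor Cx3cr1, and Ccl17 a chemokine. A group of 5 at chr12:56516538-56551695 had Psma6 and, more than 20 kb away, Nfkbia as its nearest starts, and groups of 5 had Rapgef5 and Rap1a as their nearest genes. A group of 4 at chr17:48369794-48388768 was nearest to Trem1 and Trem3, activating receptors of myeloid cells. A group was a run of at least 4 such regions, each within 20 kb of the next. There were 21 among the 5416 Nmu-alone regions, 3 among the 2784 of pCDH alone, 0 among the 2243 of Nwt alone and 1 among the 2474 of both controls. A longer list gives more such runs by its density alone, and the part of list length in these counts was not tested. The 5 groups described were picked after their positions were seen.

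Within regions that held 1 peak of each library, Nmu was wider than both controls by at least 1000 bp in 253 and narrower by as much in 377. For Nwt against the other 2 libraries the counts were 79 and 150, and for pCDH 229 and 45, so a gain in width was about as frequent in pCDH as in Nmu and a loss was most frequent in Nmu. The largest gain in Nmu was at chr11:43192985-43200202 (mm9), upstream of Mir146, a microRNA gene of the NF-kB feedback loop, where the peak measured 2755 bp in pCDH, 2218 bp in Nwt and 7101 bp in Nmu. Next came regions nearest to Ptprj (983, 758 and 4924 bp), Slc39a4 (890, 627 and 4738 bp), Slc8a1 (the smallest width, 648 and 4188 bp) and Colgalt2 (811, 807 and 3810 bp). Ptprj encodes a receptor tyrosine phosphatase and Slc39a4 a zinc importer. Of these, the Slc39a4 peak reached the start in Nmu alone.

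Among the largest losses was that at chr13:112730138-112738351, whose nearest start, far away, is that of the kinase gene Map3k1 (7923, 7789 and 3321 bp). Regions nearest to Zfp217 (5179 and 4208 bp, and the smallest width in Nmu), Gsto2 (3954, 4002 and 637 bp) and Gm6588 (4716, 3759 and 892 bp) followed. In these 4, picked for a width in Nmu far below both controls, the controls lay closer to each other than to Nmu.

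The widest domains were marked in all 3 constructs, though not always by a single peak. The peak over Malat1, a nuclear long noncoding RNA, was the widest in each library, at 23375, 22804 and 23998 bp, and that over Neat1, its neighbour and the scaffold of paraspeckles, measured 19075 bp in pCDH, 16063 bp in Nwt and 18533 bp in Nmu. Sirpa, a receptor of myeloid cells for the signal CD47, had one of the 5 widest Nmu peaks at 15786 bp, where each control had 3 separate peaks that sum to 13579 bp in pCDH and 11979 bp in Nwt, the widest of them 9590 and 9587 bp. Kif21b, a kinesin, had a single peak of 18032 bp in pCDH and of 17528 bp in Nwt. In Nmu that domain was broken into more than 1 peak, with a sum of 16332 bp, and the one whose centre was assigned to Kif21b measured 9296 bp. Malat1 RNA lay between 156.4 and 379.9 RPKM in the 6 libraries, with a log2 difference of 0.08 ± 0.17 (SE, adjusted p 0.825, limma) between Nmu and the controls.

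Genes with the mark at their start were those with RNA, in every construct. Among 22736 genes with a transcript of 200 bases or more, those with a peak edge within 1 kb had a median RPKM at 24 h of 3.61 in pCDH (11292 genes), 3.63 in Nwt (11154) and 3.67 in Nmu (11224), and 78.0%, 78.9% and 78.5% of them reached an RPKM of 1. In such bulk libraries, fewer cells with a transcript and less RNA per cell cannot be told apart. Genes with a peak only at 1 to 20 kb had a median of 0, and 10.5%, 11.4% and 10.5% of them reached an RPKM of 1. With no peak within 20 kb the shares were 4.09%, 4.36% and 4.07%. Whether a start was marked followed detection more than level. By the mean RPKM of the 2 times in Nmu, 4.07% of genes at 0 RPKM had a marked start and 46.7% of those above 0 and up to 1. The shares were 92.7% from 1 to 10, 95.4% from 10 to 100 and 90.2% above 100. The control libraries were within 2 percentage points of these values in each range. The amount of the mark did rise with level. Median bases under a gene's peaks within 20 kb were 0, 1066.5, 2854, 3352 and 3475 over these ranges in Nmu. In pCDH they rose likewise to 3590 above 100 RPKM. In Nwt they were 3237.5 from 10 to 100 RPKM and 3183 above.

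Lists of genes that this cell type does not use had few marked starts. Of 50 developmental regulators (Hox, Pax, Sox and other genes), 39 had no marked start in any library, and 6 were marked in all 3, among them Hoxb4, Hoxc6, Tbx15, Lhx2 and Wnt1. None of 29 olfactory and vomeronasal receptor genes was marked. Of 28 housekeeping genes, 26 were marked in all 3 libraries. Among genes of the enzymes that place or remove H3K4 methylation, 19 of 22 were marked in all 3.

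To relate the mark to RNA, limma was fitted to log2(RPKM + 1) of the 6 RNA libraries with construct and time as terms and 2 residual degrees of freedom. Of 10352 genes tested, 30 rose (0.29%) and 7 fell (0.0676%) in Nmu against the mean of both controls at an adjusted p of 0.05, and 0 passed between Nwt and pCDH in either direction (0% of 10352, with 67 at an unadjusted p under 0.05). Against pCDH alone 9 rose (0.0869%) and 0 fell, and against Nwt alone 7 rose (0.0676%) and 0 fell; these contrasts share the Nmu libraries. With 1 of the 6 libraries left out, the 37 calls against the mean of controls became 83 to 3702, the highest numbers without either Nmu library (1953 when the 24 h one was dropped and 3702 when the other was), and without the filter on low values 0 genes passed (2416 at an unadjusted p under 0.05). Of the 37, 32 passed with a pseudocount of 0.25, 19 with a pseudocount of 5, 23 after quantile normalization and 23 without the time term. With a filter of RPKM 5, 30 of them were tested and all 30 passed. All 37 kept their sign in each of the 11 alternative fits that tested them all. Of the 37 genes, 34 have a transcript of 200 bases or more. The others (Mir6978, Mir6987 and Mir7678) are microRNA entries, whose RPKM rests on few reads. With 1 library of each construct at each time, the residual is the change of construct differences between the 2 times, not a spread between replicates. These p-values are measured against that residual. The labels do not say that the libraries are separate cultures, so part of it may be technical. A wider rule was used beside the test: at least 2-fold on the log2(RPKM + 1) scale in the same direction against both controls at both times, which 76 of 22736 genes met upward (0.334%) and 49 downward (0.216%), and 0 met for Nwt against pCDH. Of the 9963 genes of that length that passed the filter on low values, these were 0.763% upward and 0.492% downward. The counts rest on both Nmu libraries: without that of 24 h they became 175 higher and 217 lower, and with only the 24 h one 396 higher (1.74% of the 22736) and 466 lower (2.05%), so that lower genes then outnumbered higher ones. With a pseudocount of 5 they were 38 and 7.

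Most genes that rose in Nmu also had more H3K4me2 peak bases nearby. Peak bases were summed for each gene over the peaks whose nearest start was its own and whose centre lay within 20 kb. Of the 28 genes that rose in limma, 25 had more peak bases in Nmu than in both controls and 0 had fewer than both, and the other 3 were Il1b and Irak3, which lay between the controls, and Ptpn14, which had no peak. Some of the 28 passed the filter on low values only through the Nmu libraries, where they are high. Among these were Ebi3, Clec4n, Pilrb2, Slc39a4, Ly9, Ceacam19 and Ptpn14. Of the 6 that fell, 4 had fewer peak bases than both controls (Bnip3, Gpd1, Itgav and Nr4a1) and 1 had more (Ccng2). At least Gpd1 and Nr4a1 passed the filter only through the control libraries, where they are high. Over all 13887 genes with a peak, 35.6% had more in Nmu than in both controls and 33.9% fewer. Of the 76 genes at least 2-fold higher, 57 had more and 8 fewer, and of the 49 at least 2-fold lower, 5 had more and 29 fewer. Of the 76, 54 passed the filter on low values in the controls as well. H3K4me2 and RNA come from separate libraries of the same constructs.

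The share of genes with changed RNA was largest where most peak bases were gained or lost. Among 122 genes that had gained 3000 or more bases in Nmu over the mean of controls, 10 were at least 2-fold higher in RNA (8.20%) and 0 lower. Of these 10, 6 passed the filter on low values in the controls, and 4 only through the Nmu libraries. The 10 were Aoah, Clec4a1, Clec4d, Il1a, Lcn2, Marco, Slc39a4, Tmem176b, Tnip1 and Vnn3. Among 1307 genes with a gain of 1000 to 3000 bases, 29 were higher and 2 lower. In the middle range of -1000 to 1000 bases, 32 of 10986 genes were higher (0.291%) and 24 lower (0.218%). Among 1320 genes that had lost 1000 to 3000 bases, 2 were higher and 13 lower. Among 152 genes that had lost 3000 or more, 1 was higher and 8 lower (5.26%); the 8 include Atp6v0d2, Kcnn4, Mmp14, Nr4a1, Rtkn, Scara5 and Scel. The count of 8 became 28, with 6 higher, without the second Nmu RNA library, 5 without the pCDH H3K4me2 library, 17 with a pseudocount of 0.25 and 1 with a pseudocount of 5. Of the 8 lower genes, at least Nr4a1 passed the filter on low values only through the control libraries, where it is high. Even in the outer ranges most genes had no 2-fold difference in RNA.

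The same division by Nwt minus pCDH held 76 genes with a gain of 3000 or more bases and 166 with such a loss. Between the controls 0 of all 22736 genes met the 2-fold rule. The count of 0 in each range was therefore fixed beforehand and says nothing on the mark and RNA. Across the 9421 tested genes with a peak, the difference in peak bases and the log2 RNA difference had a Spearman correlation of 0.144 (Pearson 0.209) for Nmu against the controls and 0.0154 (Pearson 0.0293) for Nwt against pCDH; genes are not independent replicates, and all points of a comparison share the same libraries. A peak that shifts its centre across the 20 kb limit or to another gene's start changes these sums. With bases summed over merged regions in place of peaks, 11 of 64 genes that gained 3000 or more bases were at least 2-fold higher and 8 of 90 that lost as many were at least 2-fold lower.

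**Figure D4:**
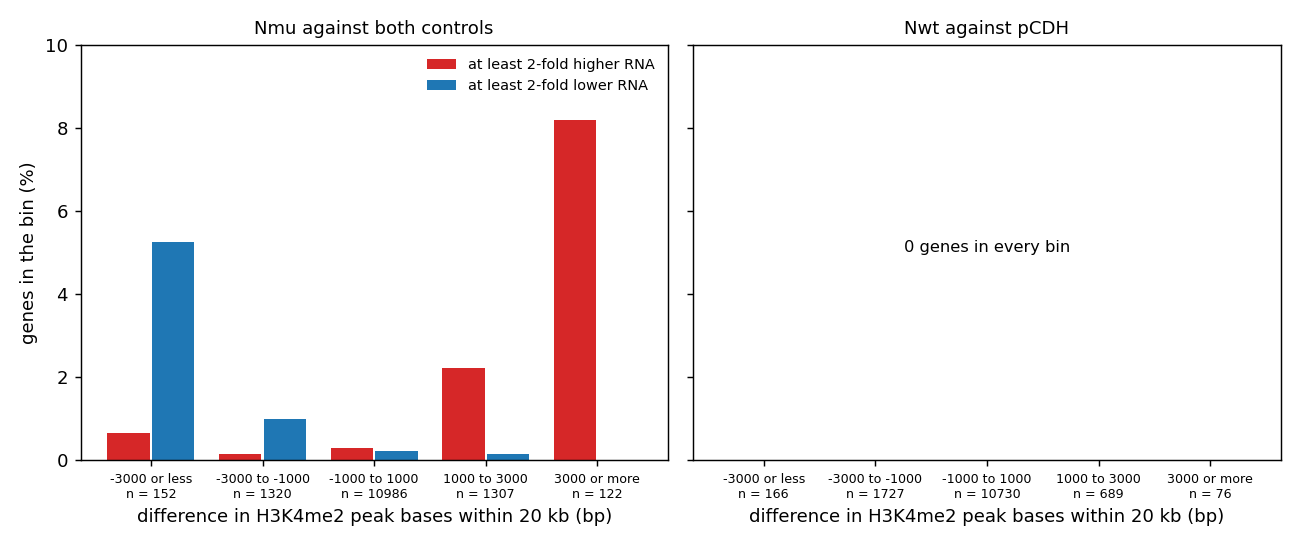
Share of genes (%) with RNA at least 2-fold higher (red) or lower (blue) at both times, by the difference in H3K4me2 peak bases within 20 kb (bp), for Nmu against both controls (left) and Nwt against pCDH (right). In Nmu the red bars rise to 8.20% at a gain of 3000 or more and the blue bars to 5.26% at a loss of 3000 or more. The right panel has 0 genes in every range, which was fixed beforehand because 0 of all 22736 genes met the rule between the controls.

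Whether a start carried the mark at all differed between constructs for few genes. With a start called marked where a peak edge lay within 1 kb, 10841 of 22736 genes were marked in all 3 libraries, 155 in Nmu alone, 169 in both controls without Nmu, and 11145 in none. Of the 155 genes marked in Nmu alone, 9 were at least 2-fold higher in RNA (5.81%) and 0 lower. Of the 169 marked in both controls, 6 were lower (3.55%) and 0 higher. Among the genes marked in all 3, 61 were higher (0.563%) and 38 lower (0.351%), and these make up most of the genes with a 2-fold difference. The filter on low values kept 53 of the 155, of which 13 passed only through the Nmu libraries, and 73 of the 169. Of the 9 higher genes, 7 passed the filter only through the Nmu libraries, where they are high, and 2 passed it in the controls as well. Without the second Nmu RNA library, 15 of the 155 were higher and 2 lower, and 14 of the 169 were lower and 4 higher, with the larger counts over all genes given above. With a pseudocount of 5, 5 of the 155 were higher and 1 of the 169 lower.

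These counts depend on how a start is called marked. With the peak's centre in place of its edge, 388 genes were marked in Nmu alone and 623 in both controls, but 265 of the 388 and 528 of the 623 had a peak edge within 1 kb in all 3 libraries. By centre, 15 of the 388 were at least 2-fold higher and 5 lower, and 8 of the 623 were higher and 3 lower. Of the 15 higher genes, 8 passed the filter on low values in the controls as well, and of the 8 higher genes, 7 did.

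Of the 9 genes at least 2-fold higher and marked in Nmu alone, the clearest case was Ebi3, a subunit of the cytokine interleukin-27. No control peak whose nearest start was that of Ebi3 had its centre within 20 kb of it. Nmu had a peak of 2174 bp over the Ebi3 start at chr17:56091557-56093730 (mm9). Its RNA was 0.386 and 0.307 RPKM in pCDH, 0.457 and 0.271 in Nwt, and 14.1 and 9.82 in Nmu. The log2 difference was 3.24 ± 0.16 (SE, adjusted p 0.0157, limma).

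The paired immunoglobulin-like receptor genes Pilrb1 and Pilrb2, whose products activate myeloid cells, lay in the same state. Pilrb1 had peaks of 1029 and 781 bp assigned to it in Nmu and none in the controls. Its RNA was 0.799 and 1.97 RPKM in pCDH, 0.75 and 1.95 in Nwt, and 20.9 and 40.5 in Nmu (log2 difference 3.72 ± 0.14 SE, adjusted p 0.0115, limma). Pilrb2 gained a peak of 1648 bp at its start beside 2 distal peaks that all 3 libraries had, and its RNA was 0.35, 0.951, 0.253 and 0.877 RPKM in the 4 control libraries against 10.4 and 19.6 in Nmu. With start windows as similar as those printed above, reads of the 2 genes may have been shared between them, so their separate values are uncertain.

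Clec4n, which encodes the fungal pattern receptor Dectin-2, had a peak of 1129 bp at its start in Nmu. Its RNA was 0.237 and 0.251 RPKM in pCDH, 0.401 and 0.556 in Nwt, and 7.89 and 10.1 in Nmu (log2 difference 2.88 ± 0.15 SE, adjusted p 0.017, limma). Slc39a4 RNA was 0.366 and 0.032 RPKM in pCDH, 0.172 and 0.143 in Nwt, and 7.01 and 4.58 in Nmu (adjusted p 0.0269, limma). Ly9 encodes a receptor of the signalling lymphocytic activation family. Its start had a peak of the caller's smallest width in Nmu, and its RNA was 0.417, 0.496, 0.493 and 0.439 RPKM in the controls against 4.79 and 4.13 in Nmu. Ceacam19, an adhesion molecule, gained a peak of 1862 bp at its start and had 2.78 and 3.08 RPKM in Nmu against 0.319 to 0.376 in the controls. Fyb, an adaptor of immune receptor signalling, already had 5.45 to 6.84 RPKM and 11902 to 12138 peak bases in the controls, and had 29.4 and 23.3 RPKM and 14927 peak bases in Nmu. Its start counted as marked through a new peak of 829 bp whose edge lay just inside the 1 kb limit. Ly9, Ceacam19 and Fyb all passed the test (adjusted p 0.0288, 0.0437 and 0.0448, limma).

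Lcn2, which encodes the iron-binding acute-phase protein lipocalin-2, had the widest new peak at a start of these 9, 3469 bp at chr2:32241852-32245320 (mm9). Its RNA was 0.106 and 0.084 RPKM in pCDH and 0.18 and 0.093 in Nwt, and in Nmu 219 at 24 h and 1.98 at the second time. The 2 Nmu libraries were far apart, and the log2 difference of 4.52 ± 1.39 (SE) did not pass the test (adjusted p 0.19, limma). Rapgef5, a Ras-family exchange factor also marked in Nmu alone, missed the 2-fold rule at the second time and had 4.09 and 1.5 RPKM in Nmu against 0.126 to 0.319 in the controls (adjusted p 0.104). A new mark did not always come with more RNA. Tns1, which encodes the focal adhesion protein tensin, had 0.668 and 0.664 RPKM in Nmu against 1.7 to 3.68 in the controls, and the next lowest, 5830418P13Rik, Elovl6, Zfp738 and Rufy4, had log2 differences from -1.0 to -0.50, none past the test.

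The 6 genes at least 2-fold lower and marked in both controls were F13a1, Fabp4, Flrt2, Gpd1, Mmp14 and Scara5. Gpd1, the cytosolic glycerol-3-phosphate dehydrogenase, had a peak of 3628 bp in pCDH and 3417 bp in Nwt that reached its start, and in Nmu the peak was 1328 bp and ended more than 1 kb before it. Its RNA was 4.18 and 3.04 RPKM in pCDH, 3.39 and 2.99 in Nwt, and 0.105 and 0.268 in Nmu. It was the only one of the 6 to pass the test (log2 difference -1.89 ± 0.18 SE, adjusted p 0.0448, limma). F13a1, the A chain of coagulation factor XIII and a marker of some tissue macrophages, lost its start peaks, with RNA of 9.97 and 2.13 RPKM in pCDH, 11.2 and 2.27 in Nwt, and 0.113 and 0.024 in Nmu (adjusted p 0.0975). Its 2 times differed within the controls themselves. At least Gpd1 and F13a1 of the 6 passed the filter on low values only through the control libraries, where they are high.

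Fabp4, a fatty acid carrier of adipocytes and macrophages, had 1176 peak bases in pCDH and 1575 in Nwt and none in Nmu. Its RNA was 78.7 and 30.2 RPKM in pCDH, 91.5 and 34.6 in Nwt, and 6.88 and 12.4 in Nmu (adjusted p 0.123). Mmp14, a membrane-bound matrix metalloproteinase, lost its upstream peak of 1828 bp (pCDH) and 1723 bp (Nwt) and kept the downstream ones, and its RNA was 22.7, 14.2, 21.5 and 14.1 RPKM in the controls against 3.94 and 5.43 in Nmu. Both genes kept RNA without a marked start. The opposite also occurred: Btg3 and Adamts1, marked in both controls alone, had log2 differences of 1.10 and 1.09, neither past the test, and Btg3 shares its reads with the overlapping entry Gm7334.

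**Figure D5:**
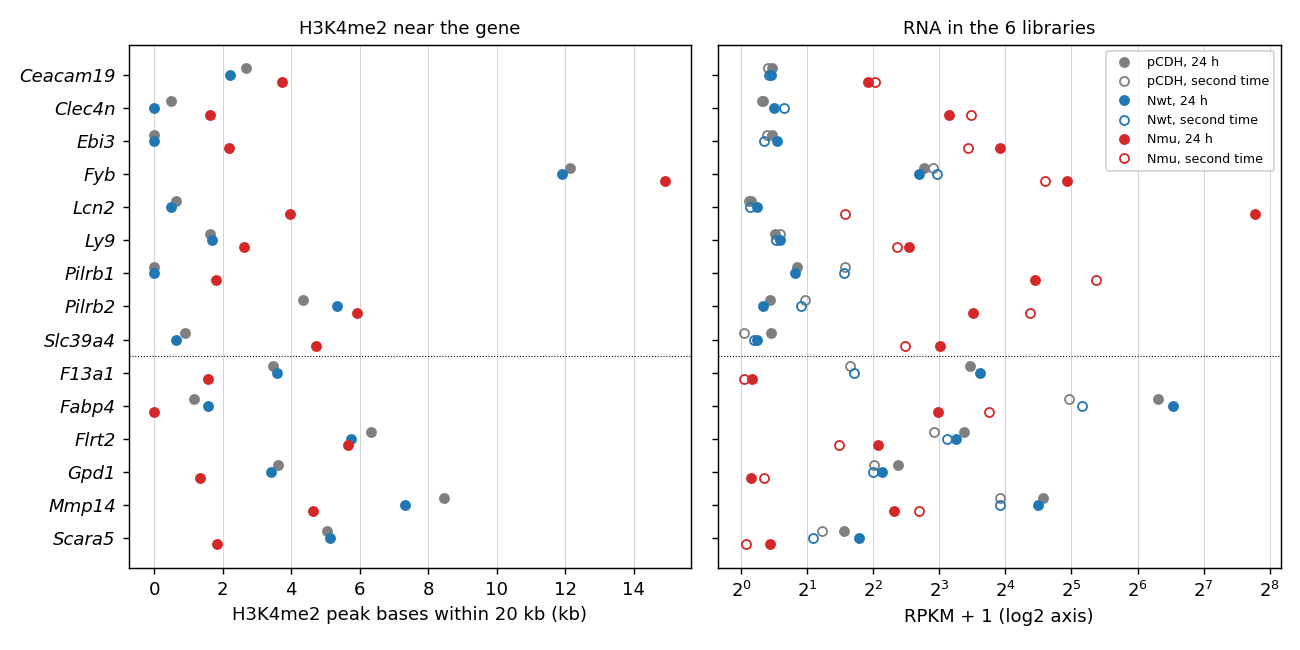
H3K4me2 peak bases within 20 kb (kb, left) and RNA as RPKM + 1 on a log2 axis (right) for the 9 genes at least 2-fold higher and marked at the start in Nmu alone (above the dotted line) and the 6 at least 2-fold lower and marked in both controls (below); points are single libraries. In the upper 9 genes the Nmu points lie to the right of every control point in both panels, and in the lower 6 to the left. The genes were chosen by this RNA difference and by the start mark. The separation in RNA therefore follows from the choice, and that in peak bases partly so.

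Of the 28 genes that rose, 17 had a marked start in all 3 constructs. Marco, a scavenger receptor of macrophages, had 3898 peak bases in pCDH, 4535 in Nwt and 12561 in Nmu, with 2 peaks inside the gene found in Nmu alone. Its RNA was 0.64 and 1.05 RPKM in pCDH, 0.966 and 2.29 in Nwt, and 97.0 and 59.0 in Nmu, the largest log2 difference of the genes called (5.15 ± 0.32 SE, adjusted p 0.0238, limma). Il1a, an alarm cytokine, had 11260, 9692 and 14681 peak bases, and RNA of 4.49 and 1.78 RPKM in pCDH, 5.6 and 2.09 in Nwt, and 66.4 and 34.3 in Nmu (log2 difference 3.54 ± 0.14 SE, adjusted p 0.0115). In other genes the RNA rose with little change in the mark. Tnf had 4434, 3825 and 4632 peak bases, while its RNA was 1.85, 3.3, 3.04 and 3.11 RPKM in the controls and 15.9 and 18.3 in Nmu (log2 difference 2.26, adjusted p 0.0302). Ptpn14, a protein tyrosine phosphatase, had 0.317 to 0.864 RPKM in the controls and 11.2 and 5.72 in Nmu (adjusted p 0.0269), with no peak assigned to it in any library.

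Genes that fell likewise differed in how much of the mark they lost. Nr4a1, an early-response nuclear receptor, had 12084 peak bases in pCDH, 10167 in Nwt and 4731 in Nmu, and 2.77, 3.96, 2.28 and 3.52 RPKM in the controls against 0.236 and 0.678 in Nmu (log2 difference -1.50 ± 0.14 SE, adjusted p 0.0437, limma). Part of that loss is a control peak of 3728 bp (pCDH) and 3305 bp (Nwt) centred just inside the 20 kb limit, whose Nmu counterpart is not centred within it. Bnip3, a mitophagy receptor induced by hypoxia, kept 6241 peak bases against 6715 and 6484, while its RNA was 59.5, 35.1, 66.5 and 34.6 RPKM in the controls and 5.17 and 4.78 in Nmu (log2 difference -3.0 ± 0.22 SE, adjusted p 0.0274). Itgav, St8sia4 and Ccng2 also fell (adjusted p 0.0448, 0.0419 and 0.0448), with 10063, 7701 and 5527 peak bases in Nmu.

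Of 4 genes of lineage factors, Spi1, which encodes PU.1, had the largest gain in peak bases. It had 5718 peak bases in pCDH, 5678 in Nwt and 12402 in Nmu, and the difference lay upstream of the gene: 2 small peaks in each control (846 and 631 bp in pCDH, the smallest width and 1191 bp in Nwt) were covered in Nmu by a single peak of 7878 bp at chr2:90920923-90928800 (mm9). Spi1 RNA was 26.9 and 28.7 RPKM in pCDH, 25.8 and 30.3 in Nwt, and 47.8 and 70.2 in Nmu. Both Nmu libraries were above all 4 controls, but the log2 difference of 1.03 ± 0.16 (SE) missed the threshold (adjusted p 0.0943, limma). Cebpa had 8762, 9190 and 8017 peak bases, Cebpb 4060, 4513 and 3907, and Irf8 12614, 12462 and 12519. None of these 3 passed the test (adjusted p 0.185, 0.145 and 0.343). Gapdh and Actb, named as references, had 3922 to 4135 and 8840 to 9795 peak bases and adjusted p of 0.738 and 0.749.

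Gene lists were described by their start marks, peak bases and calls. As the background given above, 35.6% of genes with a peak had more peak bases in Nmu than in both controls and 33.9% had fewer. In limma 0.29% of all genes tested rose and 0.0676% fell. The phagocytic, scavenger and lectin receptors had the most marked starts added in Nmu: 30 of 41 were marked in pCDH, 29 in Nwt and 35 in Nmu, and 5 were marked in Nmu alone (Msr1, Clec4n, Trem3, Pilrb1 and Pilrb2). Of the 37 with a peak, 26 had more peak bases in Nmu (70.3%) and 7 fewer. In limma 7 of the 33 tested rose (0.29% of all genes tested) and 0 fell: Marco, Clec4a1, Clec4d, Clec4n, Pilra, Pilrb1 and Pilrb2. At least Clec4n and Pilrb2 passed the filter on low values only through the Nmu libraries, where they are high. The gene lists were chosen with earlier results of these data known. The rank of this list and the counts of each list may therefore follow in part from that choice. Msr1, another scavenger receptor, gained 3611 peak bases from none in the controls, and its RNA was 0.124, 0.932, 0.104 and 0.651 RPKM in the controls against 1.0 and 4.02 in Nmu, which did not pass the test (adjusted p 0.103, limma).

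Of 31 inflammatory cytokines and mediators, 21 were marked at the start in each control and 24 in Nmu, with Il27, Ebi3 and Lcn2 in Nmu alone. Among the 30 with a peak, 19 had more peak bases in Nmu (63.3%) and 4 fewer. Of the 19 tested, 5 rose and 0 fell (Tnf, Il1a, Il1b, Ebi3 and Ccl4), against 0.29% higher and 0.0676% lower over all genes tested. Ebi3 passed the filter on low values only through the Nmu libraries, where it is high. The mark was not limited to genes with RNA: Il10 had 5847, 5869 and 8358 peak bases and 0 RPKM in all 6 libraries, and Il27 had a marked start in Nmu with at most 0.104 RPKM. Of 38 Toll-like receptor and NF-kB genes, 36 were marked in all 3 libraries. Of the 37 with a peak, 20 had more peak bases in Nmu (54.1%) and 7 fewer. Against the same shares over all genes, 4 of the 35 tested rose and 0 fell: Tlr2, Irak3, Nfkbia and Tnip1. Nfkb1, the p105 precursor of an NF-kB subunit, had 6278, 4141 and 11618 peak bases, with 12.1 and 11.8 RPKM in Nmu against 5.01 to 6.37 in the controls (adjusted p 0.091).

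Among hypoxia targets and genes of glycolysis, losses outnumbered gains. Of the 30 genes, all with a peak, 5 had more peak bases in Nmu than in both controls (16.7%) and 17 fewer (56.7%). Bnip3 alone passed the test, downward, as 0.0676% of all genes tested did. Of the 27 tested, 17 had an unadjusted p under 0.05, with 1 of them higher, against 20.2% of all genes tested. Ankrd37, a hypoxia-induced gene, had 4847, 3554 and 2734 peak bases and RNA of 20.1, 6.37, 25.6 and 6.25 RPKM in the controls against 0.162 and 0.207 in Nmu. Egln3, an oxygen-sensing prolyl hydroxylase, had 15973, 13913 and 11753 peak bases. Their starts stayed marked in all 3 libraries, and neither passed the test (adjusted p 0.0678 and 0.146, limma).

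Of the myeloid transcription factors, 32 of 39 were marked in all 3 libraries, and 14 had more peak bases in Nmu and 13 fewer. Nr4a1 was the 1 gene that passed the test, downward, as 0.0676% of all genes tested did. Mef2c, a factor of microglia, had no marked start and 5.71, 7.45, 6.12 and 8.29 RPKM in the controls against 0.806 and 2.25 in Nmu (adjusted p 0.0552, limma). Of the 23 genes of the NRF2 response to oxidative stress, 13 had more peak bases and 4 fewer, and in limma 0 passed in either direction (13 of the 22 tested had an unadjusted p under 0.05, all 13 higher, against 20.2% of all 10352 genes tested). Of 24 antigen presentation genes, 13 had more and 5 fewer. H2-K1 alone rose, as 0.29% of all genes tested did, although close paralogs make its read count uncertain. Interferon-stimulated genes had 11 with more and 8 with fewer, lysosomal and damage-associated genes 15 and 10, cell cycle genes 8 and 11, and cholesterol synthesis genes 4 and 4. In limma each of these 4 lists had 0 calls, with 2 of 11, 11 of 30, 6 of 29 and 4 of 19 tested genes at an unadjusted p under 0.05, where the share over all genes was 20.2%. Of 10 markers of homeostatic microglia, 5 were marked in each control and 7 in Nmu, where P2ry12 and Gpr34 were added; RNA of P2ry12 was at most 0.061 RPKM and that of Gpr34 at most 0.048, and both were at 0 in the Nmu libraries.

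The share of genes at least 2-fold higher was also counted by the number of Nmu-alone regions nearby, with no test of the differences. Of 20574 genes with no such region within 20 kb, 53 were at least 2-fold higher (0.258%) and 44 lower. With 1 such region, 17 of 1917 genes were higher (0.887%) and 4 lower, and with 2 or more, 6 of 245 were higher (2.45%) and 1 lower. Of these higher genes, 40 of the 53, 10 of the 17 and 4 of the 6 passed the filter on low values in the controls as well. Of 993 genes with 1 region of both controls and not Nmu, 6 were higher (0.604%) and 9 lower (0.906%). Of 1009 genes with 1 region of pCDH and Nmu without Nwt, 8 were higher (0.793%), against 0.314% of those with none.

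Overlap with factor peaks of the same construct rose with distance from starts. In Nmu a PU.1 peak overlapped 32.4% of H3K4me2 peaks within 1 kb of a start, 49.0% at 1 to 20 kb and 55.2% beyond 20 kb. The corresponding far shares were 57.5% in pCDH and 50.1% in Nwt. Over all H3K4me2 peaks the PU.1 share was 51.5% in pCDH, 42.3% in Nwt and 47.9% in Nmu, the C/EBPα share 17.4%, 26.4% and 14.0%, and the C/EBPβ share 37.6%, 55.8% and 46.0%. These shares followed the length of the factor lists, which held 71846, 53835 and 64744 PU.1 peaks, 11645, 19732 and 9117 C/EBPα peaks, and 35964, 69522 and 47893 C/EBPβ peaks, so they were not compared further between constructs.

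Within the Nmu-alone regions, the factor peaks of the 3 constructs can be set side by side on the same DNA. A PU.1 peak of Nmu lay in 39.9% of the 5416 regions (Clopper-Pearson interval 38.6 to 41.2), a PU.1 peak of pCDH in 35.0% (33.8 to 36.3) and of Nwt in 30.6% (29.4 to 31.9), although pCDH has the longest PU.1 list. Most of these regions with PU.1 in Nmu thus had PU.1 in a control without an H3K4me2 peak there, and 7.09% had PU.1 in Nmu only, against 3.20% of the regions common to all 3 libraries. In the 2474 regions of both controls and not Nmu, PU.1 of pCDH lay in 37.1%, of Nwt in 30.6% (28.8 to 32.5) and of Nmu in 29.1% (27.3 to 30.9), and the last 2 intervals overlapped. For C/EBPβ the Nmu-alone regions held 22.8% in pCDH, 38.4% in Nwt and 30.1% in Nmu, which is the order of the list lengths.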

How the data were processed

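The deposited peak files hold 1 line per peak, and every score in them is 1, so the score was not used. Per the file headers, the authors called peaks in each library on its own with HOMER in its histone style, with a peak size of 500 bp, a minimum distance of 1000 bp, a tag threshold of 7, 4-fold enrichment over input and 4-fold over the local 10000 bp. The headers name an input of another macrophage source, the same for all 3 constructs, so an enrichment shared with that input is not seen. The submitters' processing notes name Bowtie, HOMER, STAR 2.0.3e, edgeR and the mm9 build. Coordinates are mm9 except those of the RefSeq promoters, and none was converted. The RPKM values are the authors' own, as deposited in 1 table of 31641 transcripts, and for each of the 23953 gene symbols the transcript with the highest mean RPKM over the BV2 libraries was used.

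Distances, overlaps (1 base or more), merged regions and peak bases were computed in Python 3.11.15 with pandas 2.3.3, numpy 2.4.6 and scipy 1.17.1. RNA was tested with limma 3.58.1 in R 4.3.3 on log2(RPKM + 1), after a filter of RPKM 1 in 2 or more of the 6 libraries, with Benjamini-Hochberg adjustment over 10352 genes at 0.05. The limma script was tested on simulated data. RNA depth was read from the steps of the low RPKM values, which came out as whole reads within 0.1 of a read.

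The peaks and gene lists were chosen with earlier results of these data known. Named genes are those called in limma, those with a 2-fold difference and a start marked in Nmu alone or in both controls by peak edge, the 5 highest and lowest tested genes of these 2 states, the 5 widest peaks of each library, the 5 largest changes in width in each direction, and the factor genes with Htt, Gapdh and Actb. Alternatives varied the distance, the peak set, the overlap, the pseudocount, the filter, the scaling and the time term, and left out each library. A few genes that meet these rules are not reported here.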

Additional observations from a re-analysis of the deposited data

How the results depend on the processing

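Of 216 alternatives over 29 results, 31 removed no peak (a width limit of 500 bp, and chromosomes 1 to 19 and X) and say nothing. Of the other 185, 86 left the result unchanged. Unchanged means a share or median within the error of the main value, or a count within a set ratio of the main count. Direction was compared only for the 37 genes called against the mean of controls, and each kept its sign wherever it was tested. Settings with peaks above the smallest width, with merged regions and without an H3K4me2 library, and all those of the 2-fold counts, were chosen after seeing the data. Values are given for pCDH, Nwt and Nmu in that order. The share of peaks within 1 kb was 33.3%, 34.0% and 32.2% from the nearest edge, 21.0%, 21.4% and 19.4% with 1 start per gene symbol, 23.7%, 24.3% and 22.0% for peaks above the smallest width, and 32.6%, 33.5% and 31.2% with a limit of 2 kb, lowest in Nmu each time. The share beyond 20 kb was 34.9%, 34.3% and 35.6% by edge, 37.2%, 36.5% and 37.7% with 1 start, 36.4%, 35.7% and 37.0% with transcripts of 200 bases or more, 34.1%, 33.1% and 34.5% above the smallest width, and 17.1%, 16.9% and 17.7% with a limit of 50 kb. The median width above the smallest was 1457, 1389 and 1295 bp. PU.1 shares were 49.8%, 40.8% and 46.4% with an overlap of 50% of the factor peak and 54.0%, 44.6% and 50.3% above the smallest width; C/EBPα shares were 17.0%, 25.5% and 13.6%, and 18.6%, 28.5% and 15.2%; C/EBPβ shares were 36.4%, 53.7% and 44.2%, and 39.9%, 59.1% and 48.7%. The share of Nmu peaks with a peak in both controls, 76.9%, was 75.8% with a 50% overlap, 78.9% above the smallest width, and 81.4 to 82.8% without 1 control.

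The 37 calls against the mean of controls were 23 with a pseudocount of 5, 0 without the filter (2416 at an unadjusted p under 0.05), 23 after quantile normalization, 24 without the time term, and 83 to 3702 with 1 library left out. The 9 calls against pCDH were 0 with a pseudocount of 5, 0 without the filter, 20 with a filter of RPKM 5, 3 without the time term and 16 to 3234 with 1 library left out. The 7 calls against Nwt were 0, 0, 18, 4 and 71 to 3285. The 0 calls between the controls became 0 to 43. Where 1 library of a construct was left out, the lone one was assumed to vary like the others, and the cause of the higher counts was not tested. No paired analysis was possible because the replicate numbers stand for the 2 times, and the time term of the fit already is that block. The median log2 difference of genes marked in Nmu alone by centre, -0.02, was 0.24 by edge (57 genes, among them genes that passed the filter only through the Nmu libraries) and -0.06 to 0.0064 with 1 library left out. That of genes marked in both controls without Nmu, 0.07, was 0.029 without the filter, -0.090 by edge and 0.013 to 0.13 with 1 library left out. The 10 genes at least 2-fold higher with 3000 or more bases gained were 10 to 15 with 1 library left out. The 8 lower with such a loss were 17 with a pseudocount of 0.25, 1 with 5, and 5 to 28 with 1 library left out, the most without the second Nmu RNA library and the fewest without the pCDH H3K4me2 library. The 9 higher and marked in Nmu alone were 5 with a pseudocount of 5 and 9 to 15 with 1 library left out. The 6 lower and marked in both controls were 11, 1 and 6 to 14.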

Other observations

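The genes whose start was marked by H3K4me2 in Nmu alone can be set beside RNA from primary cells of the series, for which the labels name no construct: microglia, and macrophages grown from bone marrow, of mice with 1 of 2 Htt alleles (Q7 and Q175), with 1 library of each kind and so no test. Of the 155 genes, 60 reached an RPKM of 1 in Q7 microglia (38.7%) and 61 in Q7 macrophages (39.4%), against 37 in the mean of the BV2 control libraries (23.9%). These genes were chosen for an unmarked start in both BV2 controls, where genes with such a start seldom had RNA. The lower share in the BV2 controls therefore follows in part from the choice. Over all 22736 genes the shares were 40.5%, 41.5% and 42.2%. Of the 169 genes marked in both BV2 controls, 63 (37.3%), 60 (35.5%) and 69 (40.8%) reached it. Ebi3 had 1.53 RPKM in Q7 microglia, 2.03 in Q175 microglia, 6.05 in Q7 macrophages and 7.89 in Q175 macrophages. Clec4n had 0.668, 0.367, 11.5 and 10.2 RPKM, and Fyb 15.9, 18.3, 50.4 and 44.8. Ceacam19 was listed at 0 in both microglia libraries and at 0.237 and 0.219 RPKM in macrophages. In the same order, Lcn2 had 20.9, 9.26, 5.165 and 2.13 RPKM, Pilrb1 0.49, 0.343, 0.914 and 0.537, and Pilrb2 0.437, 0.212, 1.175 and 0.476. Ly9 had 9.68, 11.34, 77.6 and 65.0 RPKM, and Slc39a4 0.95, 1.367, 0.643 and 0.785. Lcn2, Pilrb1 and Pilrb2 were thus lower in Q175 than in Q7 in both cell types, and Ebi3 and Slc39a4 higher. The median log2 difference between Q175 and Q7 was -0.05 in microglia for the genes marked in Nmu alone, against -0.07 over all genes, and 0.04 against 0.18 in macrophages.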
